A study of Mus musculus with 20 samples.

Results

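The genes described here are 10 genes of the endocardial cushions and the valve mesenchyme: Snai1, Snai2, Twist1, Prrx1, Prrx2, Msx1, Msx2, Sox9, Nfatc1 and Has2. They were taken by symbol, and all 10 of them were found among the 33495 genes of the deposited table. RNA was measured in 20 libraries of C57BL/6 mouse embryos in which floxed Kmt2d, the gene of a histone H3K4 methyltransferase, was recombined by 1 of 3 Cre drivers. Mesp1Cre, which acts in mesodermal precursors, was studied in whole hearts at E9.0, with 4 mutants and 4 controls. Mef2cAHF::Cre, which acts in precursors of the anterior heart field, was studied in the right ventricle and outflow tract at E11.5, with 3 libraries of each label. Tnnt2::Cre, which acts in cardiomyocytes, was studied in whole hearts at E11.5, with 3 mutants and 3 controls. Mutants were Cre; Kmt2d fl/fl; mTmG/+ and controls were Cre; Kmt2d fl/+; mTmG/+, so that controls, which the titles call WT, also carried Cre, the reporter and 1 floxed allele, and differ from mutants by the allele that they keep. Nothing in the labels says that a library was pooled from several embryos or came from 1. Where libraries of a group were made from the same embryo or the same pool, the p-values measure technical spread only.

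The cushions are swellings of the atrioventricular canal and the outflow tract from which the valves and part of the septa form. Endocardial cells there receive signals of the TGF-beta, BMP and Notch families, lose their junctions and move as mesenchymal cells into a hyaluronan-rich matrix, and cells of the neural crest join them in the outflow tract. Snai1, Snai2 and Twist1 encode repressors of epithelial genes that act early in this transition. Has2 makes the hyaluronan, Nfatc1 marks the endocardium that lines the valves, Sox9 acts in proliferating and matrix-forming valve precursors, and Msx1, Msx2, Prrx1 and Prrx2 encode homeodomain proteins of mesenchyme.

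The upstream sequences of 4 members are given because these are the ones that passed a test between mutants and controls or between stages and that had an entry in the RefSeq promoter table used (build GRCm38.p6, which held 6 of the 10 members: Msx1, Msx2, Prrx1, Prrx2, Snai1 and Twist1). Each line holds the 250 bases before the annotated start, read 5′ to 3′ on the strand of the gene. The windows lie at chr2:30845117-30845366 on the plus strand for Prrx2, chr5:37824586-37824835 on the minus strand for Msx1, chr13:53472781-53473030 on the minus strand for Msx2 and chr12:33957421-33957670 on the plus strand for Twist1. Capitals mark matches on either strand to the Snail E-box CAGGTG, the homeodomain core TAATTG, the SOX core ATTGTT or the NFAT core GGAAA.
Prrx2: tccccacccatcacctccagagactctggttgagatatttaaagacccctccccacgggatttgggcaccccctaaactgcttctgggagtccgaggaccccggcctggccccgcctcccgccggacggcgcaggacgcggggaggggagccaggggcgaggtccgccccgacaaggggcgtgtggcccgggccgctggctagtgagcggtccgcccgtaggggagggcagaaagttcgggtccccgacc
Msx1: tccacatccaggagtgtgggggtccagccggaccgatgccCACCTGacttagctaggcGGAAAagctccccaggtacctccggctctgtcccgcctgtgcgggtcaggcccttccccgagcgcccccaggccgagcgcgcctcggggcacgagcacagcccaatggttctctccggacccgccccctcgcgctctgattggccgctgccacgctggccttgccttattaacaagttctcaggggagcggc
Msx2: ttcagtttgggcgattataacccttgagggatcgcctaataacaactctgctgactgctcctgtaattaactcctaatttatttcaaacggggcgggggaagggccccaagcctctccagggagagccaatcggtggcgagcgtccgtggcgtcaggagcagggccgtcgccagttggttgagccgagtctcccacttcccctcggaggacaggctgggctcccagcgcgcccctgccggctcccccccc
Twist1: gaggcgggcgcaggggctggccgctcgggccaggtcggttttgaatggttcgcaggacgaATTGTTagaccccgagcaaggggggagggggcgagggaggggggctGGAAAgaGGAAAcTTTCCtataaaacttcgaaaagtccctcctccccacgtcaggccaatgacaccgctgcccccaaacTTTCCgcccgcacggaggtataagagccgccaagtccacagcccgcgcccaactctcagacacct
Among the 6 member promoters, the E-box was found in 2 (Msx1 and Snai1), against 17.22% of all 32851 promoters of the same length. The homeodomain core was found in 0 of 6, against 7.169%, the SOX core in 1 (Twist1), against 9.424%, and the NFAT core in 3 (Msx1, Prrx1 and Twist1), against 55.566%. The window of Prrx2 and that of Msx2 held none of these letters, and other forms of the motifs were not sought. A match describes the sequence and is not a bound site.

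In the mm9 coordinates of the table, the members lie apart from each other, with Prrx2 at chr2:30690492-30736771, Snai2 at chr16:14705945-14709488, Sox9 at chr11:112643538-112649074 and Has2 at chr15:56497184-56526059. Each is an annotated protein-coding gene whose counts were taken over its exons. Exons of Has2 overlap those of Has2as on the opposite strand, and the sources used here do not say whether counting used strand, so that the counts of Has2 are uncertain to the extent of that overlap. For Snai1, 9.93% of the exonic bases had 1 copy elsewhere in mm9 at 95% identity or more, and copies by the same measure covered 6.06% of the exonic bases of Snai2 (1547 copies) and 5.25% of those of Msx2 (12485 copies). Counts of these 3 genes are uncertain in those parts.

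Depth was 21727258 to 28790705 counts per library in Mesp1Cre, 25001020 to 37165163 in Mef2cAHF::Cre and 35379996 to 45341870 in Tnnt2::Cre. Levels are given as CPM, counts scaled to the size of the library after TMM over the 20 libraries, and per kb of exon where genes are compared with each other. Kmt2d, listed as Mll2, checks the labels. It was at 126 to 140 CPM in Mesp1Cre mutants against 150 to 163 CPM in controls, and at 113 to 122 CPM in Tnnt2::Cre mutants against 126.5 to 166.5 CPM in controls, with no overlap in either line, although neither difference passed the test (adjusted p = 0.0764 and 0.327, edgeR). The difference in Mesp1Cre passed with DESeq2 (adjusted p = 0.0399) and in 1 fit of all 6 groups (adjusted p = 0.0318, edgeR). In Mef2cAHF::Cre it was higher in the libraries labelled mutant, at 183 to 190 CPM, than in those labelled control, at 142 to 153 CPM (log2 fold change 0.32, SE 0.06, adjusted p = 0.0359, edgeR), a call kept without labelled control 2 and lost without any other of the 6 libraries (0.0605 to 0.152), in 1 fit of all 6 groups (0.1), by limma on the FPKM (0.228) and with the replicate block (0.0584). This direction goes against the labels. The titles and the column names of the table also give these 6 libraries opposite genotypes. The libraries are therefore called labelled mutant and labelled control after the titles, and by the column names every difference between them has the opposite sign. Erythroid markers, at 102700 to 158300 CPM in sum over 10 genes in Tnnt2::Cre controls and at 130700, 18970 and 43400 CPM in mutants 1, 2 and 3, differed widely between libraries of that line. Endothelial and endocardial markers and cardiomyocyte markers, 10 genes each, were all above 0 in all 20 libraries.

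All 10 members were detected in every library, and their order of levels changed with stage and tissue. In Mesp1Cre controls at E9.0, Has2 was the highest per length, at 24.8 ± 1.32 CPM per kb (SD, n = 4), above the range of every other member. Nfatc1 (13.4 ± 1.49), Msx2 (10.95 ± 1.54) and Prrx2 (10.4 ± 1.79) followed with overlapping ranges. Twist1 (5.94 ± 1.47), Sox9 (5.83 ± 2.19), Msx1 (3.46 ± 0.886), Snai2 (3.04 ± 1.67), Prrx1 (2.26 ± 1.23) and Snai1 (1.39 ± 0.855) were lower, and each overlapped its neighbours in this order. In Tnnt2::Cre controls at E11.5, Sox9 stood first, at 16.1 ± 2.59 CPM per kb (n = 3), followed by Twist1 at 12.8 ± 1.49, with no overlap between them. Nfatc1, Prrx2, Snai2 and Has2 then lay between 7.64 and 8.98 CPM per kb on average, in that order of their means with Nfatc1 first, and each overlapped its neighbours in this order, while Nfatc1 lay above every value of Snai2 and Has2. Prrx1 (2.79) overlapped both Msx2 (3.58) and Msx1 (2.20), and every value of Msx2 lay above those of Msx1. Snai1 was the lowest at 1.95 ± 0.0446 CPM per kb. In the right ventricle and outflow tract, Sox9 again stood first, at 19.3 ± 1.78 CPM per kb (n = 3, labelled controls). Twist1, Snai2, Has2 and Nfatc1 overlapped their neighbours between 13.85 and 8.94 CPM per kb, and Msx1, Msx2 and Snai1 were the lowest 3, at 1.77, 1.44 and 1.105 CPM per kb.

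**Figure D1:**
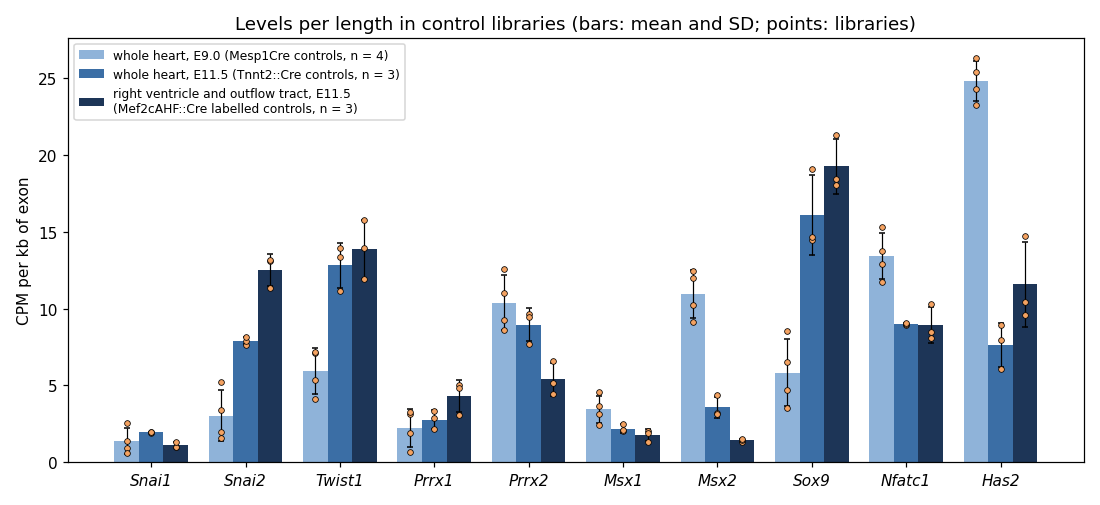
Mean level per kb of exon, with SD and single libraries, of each member in the 3 control groups; the y axis is CPM per kb. Has2 is highest at E9.0 (24.8 CPM per kb) and Sox9 at E11.5 (16.1 in whole heart and 19.3 in right ventricle and outflow tract).

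The comparison of Mesp1Cre mutants with controls asks whether deletion in early mesoderm changed these genes at E9.0. None of the 10 members passed the test over all 15883 genes (0 of 10, against 11.47% of all genes called, edgeR), although 2 members had an unadjusted p below 0.05, and DESeq2 called 1 of 10. The members' median log2 fold change was -0.04, against -0.0018 over all genes. The hyaluronan synthase gene Has2 was at 97.5, 102, 106 and 93.4 CPM in the controls and at 66.6, 97.2, 70.7 and 81.0 CPM in the mutants. Mutant 2 lay within the controls' range and the other mutants lay below it (log2 fold change -0.32, SE 0.11, adjusted p = 0.0886, edgeR). Has2 passed the threshold with DESeq2 (adjusted p = 0.047) and without mutant 2 (adjusted p = 0.0137). For Sox9, the chondrogenic and valve regulator, the controls gave 35.4, 19.55, 26.9 and 14.6 CPM and the mutants 9.71, 17.4, 13.4 and 21.8 CPM, so that the groups overlapped (log2 fold change -0.61, SE 0.27, adjusted p = 0.175). Msx1 was lower on average by 0.54 on the log2 scale without passing (SE 0.33, adjusted p = 0.314) and Snai2 was higher by 0.55 (SE 0.34, adjusted p = 0.34).

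Spread between libraries of 1 genotype was large in this line for several members. Snai1 ran from 1.02 to 4.19 CPM in controls and from 0.464 to 3.90 CPM in mutants, on 11 to 114 counts, and Prrx1 from 3.25 to 16.3 CPM and from 4.65 to 17.9 CPM. The coefficient of variation of the members had a median of 25.2% in controls and 29.7% in mutants, against 14.6% and 16.3% for all genes of at least 1 CPM. In the E11.5 groups the members' median ran from 8.51% to 15.7%, and that of all genes of at least 1 CPM from 7.44% to 12.3%. Control 4 was the lowest of the 4 controls for 8 of the 10 members and control 3 the highest for 5, and mutant 2 was the highest of the mutants for 6. Erythroid markers summed to 17920 CPM in control 4 against 5427 to 13130 CPM in the other controls. Cranial neural crest and pharyngeal arch markers, of which 8 were in the table, summed to at most 19.24 CPM in the 20 libraries. In this line they were at 13.4 CPM in control 3, at 1.98 to 3.86 CPM in the other controls and at 6.135 to 19.24 CPM in mutants. Of these markers 3 were tested and 1 passed as higher in mutants (Alx1, log2 fold change 2.17, adjusted p = 0.0444, edgeR). Pharyngeal endoderm markers summed to 70.6 CPM in control 3, 31.98 to 37 CPM in the other controls and 22.9 to 47.5 CPM in mutants. In mutants endothelial and endocardial markers summed to 541 to 636 CPM against 377 to 446 CPM in controls, and 4 of 10 of them passed the test as higher, while erythroid markers summed to 1923 to 7470 CPM against 5427 to 17920 CPM. The part of these cells in the members' values was not tested, and in whole hearts fewer cells of a type and less RNA per cell cannot be told apart.

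Among 102 other cushion genes, 97 were tested in Mesp1Cre, and 11 were higher and 9 lower in mutants. Of all 15883 genes, 980 were higher and 841 lower. Of the ligands, 1 of 15 rose and 3 fell. Vegfa, an endothelial growth factor, rose from 63.2 ± 3.83 CPM to 196 ± 51.5 CPM (log2 fold change 1.65, SE 0.16, adjusted p = 4.35e-05). Of the 16 receptors, 4 rose and 2 fell: the VEGF receptor gene Kdr rose by 0.74 on the log2 scale (SE 0.08), and Erbb3, a neuregulin receptor gene of cushion mesenchyme, fell by 1.73 (SE 0.28, adjusted p = 0.00196), from 8.47 to 2.51 CPM. Of 22 transcription factors, 3 rose, with Foxp1 higher by 0.54 (SE 0.09), and 0 fell. Of 26 matrix and adhesion genes, 2 rose and 3 fell, and Col2a1 and Col5a1, which encode fibrillar collagens, fell by 1.34 (SE 0.19) and 0.83 (SE 0.15) on the log2 scale. Of 18 signal effectors, 1 rose and 1 fell.

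In Tnnt2::Cre, where the driver acts in cardiomyocytes, 1 of the 10 members passed the test, against 0.293% of all 17045 genes. This was Prrx2, a paired-type homeobox gene of mesenchyme, which fell to about 50% of the control level. Its levels were 16.8, 13.4 and 16.5 CPM in the controls and 8.215, 6.42 and 8.50 CPM in the mutants, on 462 to 715 and 245 to 326 counts. The groups did not overlap, and the lowest control was above the highest mutant by more than the whole range of either group (log2 fold change -1.01, SE 0.15, adjusted p = 0.0424, edgeR). The call was kept without mutant 1 (adjusted p = 0.0104) and was lost without mutant 2, mutant 3, control 1, control 2 or control 3 (0.0646 to 0.235), with log2 fold changes of -1.10 to -0.90 over all 6. It was also lost by limma on the FPKM (-0.88, adjusted p = 0.113) and with the replicate block (-1.01, adjusted p = 0.0508, edgeR), and kept by DESeq2 (-1.01, adjusted p = 5.78e-06). Erythroid markers summed to 102700 to 158300 CPM in controls and to 130700, 18970 and 43400 CPM in mutants 1, 2 and 3. The part of blood cells in the fall of Prrx2 was not tested.

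All 10 members had a negative log2 fold change in this line, against 49.3% of all genes, and their median was -0.34, against 0.0037 over all genes. Besides Prrx2, 3 members did not overlap between genotypes (7.98% of all genes were lower without overlap), and none of these passed the test. Snai1 was at 3.08, 3.22 and 3.19 CPM in controls and at 1.89, 2.57 and 1.87 CPM in mutants (log2 fold change -0.58, SE 0.22, adjusted p = 0.356). Snai2 was at 15.6, 16.1 and 16.5 CPM in controls and at 10.6, 12.6 and 14.2 CPM in mutants (-0.36, SE 0.14, adjusted p = 0.356). Both encode zinc-finger repressors of the epithelial-mesenchymal transition. Sox9 was at 59.9, 60.6 and 78.8 CPM in controls and at 49.1, 55.2 and 56.1 CPM in mutants (-0.31, SE 0.12, adjusted p = 0.379). Prrx1, the paralogue of Prrx2, overlapped, at 10.7 to 16.5 CPM in controls and 7.76 to 11.98 CPM in mutants (-0.49, SE 0.21, adjusted p = 0.399). Has2, Msx1, Msx2, Nfatc1 and Twist1 overlapped as well, with log2 fold changes of -0.37 to -0.08. The members were read in the same 6 libraries, and mutant 1 was the lowest of its group for 6 of them. By the authors' FPKM on a log2 scale, Twist1 was at 0.04 above controls, where the median of all genes was shifted by 0.11.

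**Figure D2:**
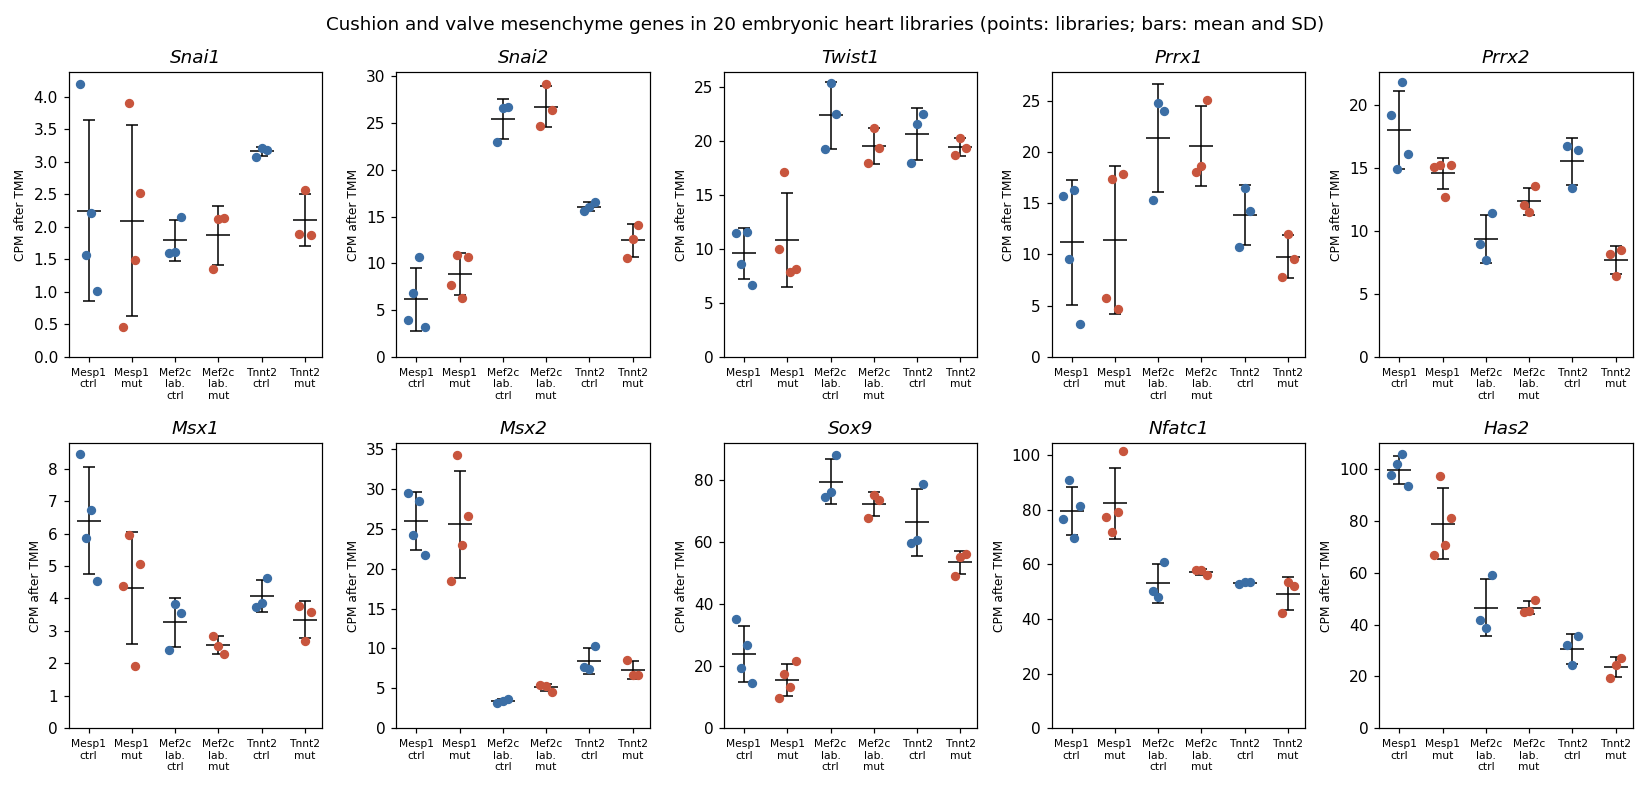
CPM after TMM (y axis, from 0) of each member in every library of the 6 groups (x axis), controls in blue and mutants in red, with mean and SD; Mef2cAHF::Cre groups follow the titles. Prrx2 in Tnnt2::Cre runs from 6.42 to 8.50 CPM in mutants and from 13.4 to 16.8 CPM in controls, and Snai1 runs from 0.464 to 4.19 CPM over the 8 libraries at E9.0.

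Among the 102 other cushion genes, 0 rose and 1 fell of the 100 tested in Tnnt2::Cre by edgeR, with 15 at an unadjusted p below 0.05. Of all 17045 genes, 13 rose and 37 fell, with 2034 at an unadjusted p below 0.05. Eln, the gene of elastin, fell from 28.2 ± 10.5 CPM to 6.48 ± 1.92 CPM (log2 fold change -2.12, SE 0.32, adjusted p = 0.0386), a call lost without mutant 3, control 2 or control 3 (0.149 to 0.222) and by limma on the FPKM (0.139). The median log2 fold changes of the ligands, receptors, signal effectors, transcription factors and matrix genes were 0.14, -0.07, -0.04, -0.11 and -0.06. All 10 epicardial markers had positive values and all 10 erythroid markers negative ones, and 0 of either list passed the test with edgeR.

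In Mef2cAHF::Cre, 0 of the 10 members passed the test, against 2.85% of all 16920 genes, with 2 of 10 at an unadjusted p below 0.05 and 0 of 10 called by DESeq2. Those 2 were also the members whose groups did not overlap, both of them higher in the libraries labelled mutant, where 12.4% of all genes were higher and 1947 of 16920 were lower without overlap. The BMP-responsive homeobox gene Msx2 was at 5.47, 5.28 and 4.61 CPM in the libraries labelled mutant and at 3.20, 3.41 and 3.63 CPM in those labelled control (log2 fold change 0.58, SE 0.16, adjusted p = 0.0875, edgeR), on 144 to 170 and 94 to 97 counts. Prrx2 was at 12.04, 11.52 and 13.6 CPM and at 8.995, 7.74 and 11.46 CPM (log2 fold change 0.40, SE 0.15, adjusted p = 0.201). By the column names the same libraries give -0.58 for Msx2 and -0.40 for Prrx2, so that both would be lower in mutants. For Has2, Snai1, Snai2, Prrx1, Nfatc1 and Sox9 the log2 differences were within 0.14 of 0 and the groups overlapped. Twist1 and Msx1 were at -0.20 (SE 0.12) and -0.35 (SE 0.22), with overlap. Neural crest and pharyngeal arch markers summed to 3.59 to 6.48 CPM in the libraries labelled mutant against 7.05 to 11.6 CPM in those labelled control, with 0 of the 6 tested passing with edgeR and 3 at an unadjusted p below 0.05, and erythroid markers to 24720 to 46660 against 7183 to 31900 CPM, with 9 of 10 higher on average and 1 passing. The part of these cells in the members' values was not tested. Of 100 other cushion genes tested, 2 passed. In the libraries labelled mutant Col2a1 was higher, at 124 against 65.4 CPM (adjusted p = 0.0248), and Edn1, the gene of the endothelin-1 ligand, was lower, at 12.2 against 22.5 CPM (adjusted p = 0.0217). The call of Col2a1 was lost without labelled mutant 1, 2 or 3 (0.0712 to 0.128) and that of Edn1 without labelled mutant 1 or 2 (0.12 to 0.125). Both calls were lost in 1 fit of all 6 groups (0.0687 and 0.328, edgeR), and that of Col2a1 also by limma on the FPKM (0.0533). These directions too reverse by the column names.

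**Figure D3:**
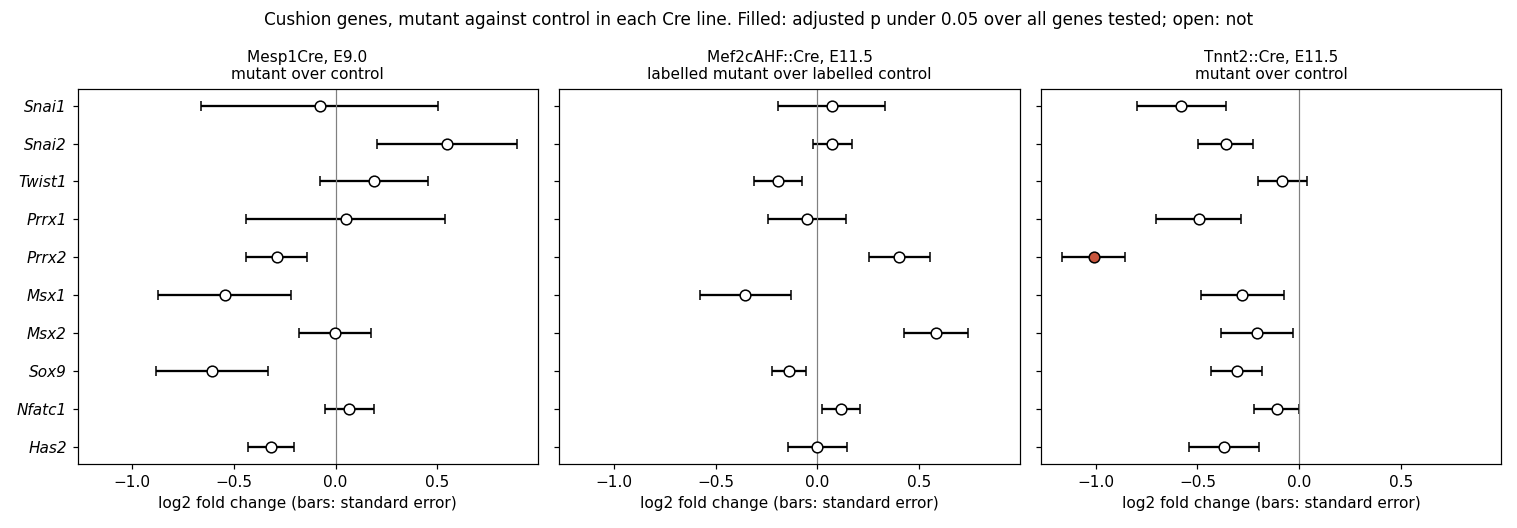
Log2 fold change with standard error (x axis) of each member in the 3 Cre lines, by the titles; filled points passed adjusted p under 0.05 over all genes. Prrx2 in Tnnt2::Cre, at -1.01, is the only filled point, and all 10 members lie below 0 in that line.

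The difference between lines was tested as an interaction in 1 fit of all 20 libraries. By the titles, Prrx2 was the only member whose difference passed, and by the column names that of no member passed in the comparisons with Mef2cAHF::Cre. Its log2 fold change in Mef2cAHF::Cre was above that in Tnnt2::Cre by 1.41 (SE 0.24, adjusted p = 0.00207, edgeR; 1 of 10 members against 3.19% of all 18391 genes). By the column names the difference was 0.61 (SE 0.24, adjusted p = 1), with 0% of all genes called by edgeR (472 at an unadjusted p below 0.05, and 2 called by DESeq2). The log2 fold change of Prrx2 in Mesp1Cre was below that in Mef2cAHF::Cre by 0.71 by the titles (difference -0.71, SE 0.22, adjusted p = 0.0459; 1 of 10 members against 11.3%). This call was kept without Tnnt2::Cre mutant 1 or 2 or control 2, Mesp1Cre control 2 or 4 or mutant 2, or labelled control 3 of Mef2cAHF::Cre, and was lost without any 1 of the other 13 libraries (0.0539 to 0.154), with all genes of at least 1 count (0.0708), by limma on the FPKM (0.187) and with the replicate block (0.0525). By the column names it was above by 0.09 (adjusted p = 0.883; 0 of 10 members against 1.63%, and 0 by DESeq2). Between Mesp1Cre and Tnnt2::Cre, which the conflict of labels does not touch, 0 of 10 members passed, against 3.04%, and Prrx2 came to 0.71 (SE 0.22, adjusted p = 0.0856, edgeR; DESeq2 called 1 of 10). Without Mesp1Cre control 3, 2 of 10 passed. The lines also differ in stage, in tissue or in both, so that the driver cannot be told apart from these.

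The controls allow 2 comparisons without mutants. In whole hearts, controls of Tnnt2::Cre at E11.5 were set against controls of Mesp1Cre at E9.0. The 2 groups differ in stage, in Cre driver and in depth (36809972 to 45341870 against 25581534 to 28790705 counts), and these cannot be told apart. Of the 10 members 7 passed the test, against 38.3% of all 16697 genes: 3 were higher and 4 lower at E11.5. The 3 that rose were Sox9, Snai2 and Twist1, while Msx1 and Msx2, also genes of mesenchyme, were among the 4 that fell. Sox9 was at 14.6 to 35.4 CPM at E9.0 and at 59.9 to 78.8 CPM at E11.5 (log2 fold change 1.43, SE 0.24, adjusted p = 0.000689). Snai2 was at 3.97, 6.89, 10.6 and 3.17 CPM and then at 15.6, 16.1 and 16.5 CPM (1.35, SE 0.33, adjusted p = 0.00673), and Twist1 at 6.66 to 11.6 CPM and then at 17.95 to 22.5 CPM (1.08, SE 0.19, adjusted p = 0.00104). None of these 3 overlapped between stages, against 25.3% of all genes that were higher without overlap.

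The other 4 that passed were lower at E11.5. Has2 was at 97.5, 102, 106 and 93.4 CPM at E9.0 and at 31.9, 24.4 and 35.8 CPM at E11.5, a fall by 1.73 on the log2 scale (SE 0.12, adjusted p = 2.73e-06). Msx2 was at 29.5, 24.2, 28.45 and 21.7 CPM and then at 7.64, 7.45 and 10.4 CPM (-1.65, SE 0.16, adjusted p = 2.39e-05). The endocardial factor gene Nfatc1 fell from 79.7 ± 8.86 CPM to 53.3 ± 0.413 CPM (-0.61, SE 0.10, adjusted p = 0.000509). Msx1 fell from 6.40 ± 1.64 to 4.08 ± 0.491 CPM with overlapping groups (-0.68, SE 0.24, adjusted p = 0.0439), a call kept without E9.0 control 4 and lost without any other of the 7 libraries (0.0514 to 0.154), with all genes of at least 1 count (0.0687) and in 1 fit of all 6 groups (0.0817). Prrx2 (-0.25), Prrx1 (0.27) and Snai1 (0.46) did not pass, and their groups overlapped.

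Of the 100 other cushion genes tested between stages, 26 were higher and 29 lower, against 3268 higher and 3133 lower of all 16697 genes. Matrix and adhesion genes had 13 of 27 higher and 6 lower. Fbln2 and Postn, which encode matrix proteins of the cushions, rose from 6.21 to 113 CPM and from 9.94 to 193 CPM, and Eln rose from 0.215 to 28.2 CPM. Col2a1 fell from 250 to 62.3 CPM. Of 23 transcription factors 3 were higher and 9 lower, of 18 signal effectors 2 and 6, with Lef1, a Wnt effector, lower (log2 fold change -1.53, SE 0.12), and of 16 ligands 3 and 4, with Tgfb2 lower (-0.90, SE 0.08). Beside these, 10 of 10 erythroid, 9 of 10 epicardial and 6 of 8 macrophage markers tested were higher at E11.5, with median log2 fold changes of 2.96, 2.03 and 2.21. Of 10 smooth muscle markers 1 was higher and 6 were lower (median -0.67), of 10 cardiomyocyte markers 2 and 4, and of 10 endothelial and endocardial markers 5 and 2. Of the 4 neural crest and pharyngeal arch markers tested 0 passed with edgeR (1 at an unadjusted p below 0.05), and 2 of 3 pharyngeal endoderm markers were lower. The part of these cells in the members' changes was not tested.

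Right ventricle and outflow tract were set against whole heart in controls at E11.5, again across Cre lines, with Mef2cAHF::Cre libraries labelled control. Tissue, driver and depth (25001020 to 27568922 against 36809972 to 45341870 counts) cannot be told apart here. Of the 10 members 6 passed, against 39.8% of all 17042 genes: Snai2, Prrx1 and Has2 were higher and Snai1, Prrx2 and Msx2 lower in the right ventricle and outflow tract. Msx2 was at 3.20, 3.41 and 3.63 CPM against 7.64, 7.45 and 10.4 CPM (log2 fold change -1.30, SE 0.18, adjusted p = 0.000513). Prrx2 was at 8.995, 7.74 and 11.46 CPM against 16.8, 13.4 and 16.5 CPM (-0.72, SE 0.17, adjusted p = 0.00725). Snai1 was at 1.79 ± 0.315 CPM against 3.16 ± 0.0723 CPM (-0.81, SE 0.22, adjusted p = 0.0155) while Snai2 was at 25.45 ± 2.12 CPM against 16.05 ± 0.481 CPM (0.67, SE 0.11, adjusted p = 0.00109). For these 4 genes and for Has2 the groups did not overlap, against 25.6% of all genes that were higher and 27.8% that were lower without overlap. Has2 (0.61, SE 0.18, adjusted p = 0.023, edgeR) and Prrx1 (0.64, SE 0.21, adjusted p = 0.034, edgeR) passed, but not without each of several libraries. The call of Has2 was lost without whole-heart control 1 or 2 or right ventricle control 3 (0.057 to 0.0861), that of Prrx1 without whole-heart control 1 or 3 or right ventricle control 2 or 3 (0.0853 to 0.117), and that of Snai1 without right ventricle control 1 (0.058). In 1 fit of all 6 groups the calls of Snai1, Snai2 and Prrx1 were lost (adjusted p = 0.249, 0.0876 and 0.339, edgeR). Sox9, Twist1, Msx1 and Nfatc1 did not pass. Sox9 passed as higher without whole-heart control 3 (0.40, adjusted p = 0.0185), by limma on the FPKM (0.50, adjusted p = 0.00838) and with the replicate block (0.28, adjusted p = 0.037, edgeR).

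Read by the column names, with the other 3 Mef2cAHF::Cre libraries as controls, 6 of 10 members also passed, against 38.6% of all 17271 genes. Msx2 (-0.72), Snai1 (-0.74), Snai2 (0.74), Prrx1 (0.58) and Has2 (0.60) passed, Msx1 passed as lower (-0.67, adjusted p = 0.0167), and Prrx2 did not pass (-0.32, adjusted p = 0.0521, edgeR). Both readings use the same 3 whole-heart controls. The values that follow for other genes are by the titles, with the libraries labelled control. Among the other cushion genes 43 were higher and 10 lower of 100, against 3167 higher and 3609 lower of all 17042 genes. Of 27 matrix genes 14 were higher and 0 lower. Bmp4 and Nrg1, a BMP ligand and neuregulin 1, were higher by 1.20 (SE 0.12) and 1.37 (SE 0.14) on the log2 scale, and Zeb1, another repressor of epithelial genes, was at 137 against 64.1 CPM. Tbx5, Nkx2-5 and Id1 were lower, at 19.3 against 63.5, 6.73 against 13.3 and 20.9 against 41.4 CPM, of which Nkx2-5 did not pass in 1 fit of all 6 groups (adjusted p = 0.0885, edgeR). Erythroid markers summed to 7183 to 31900 CPM in the labelled controls of right ventricle and outflow tract against 102700 to 158300 CPM in whole heart. Of these markers, 10 of 10 passed as lower. Of 6 neural crest and pharyngeal arch markers tested 4 were higher, at sums of 7.05 to 11.6 against 1.86 to 3.22 CPM. In the libraries that the column names call controls, the sums were 24720 to 46660 and 3.59 to 6.48 CPM.

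**Figure D4:**
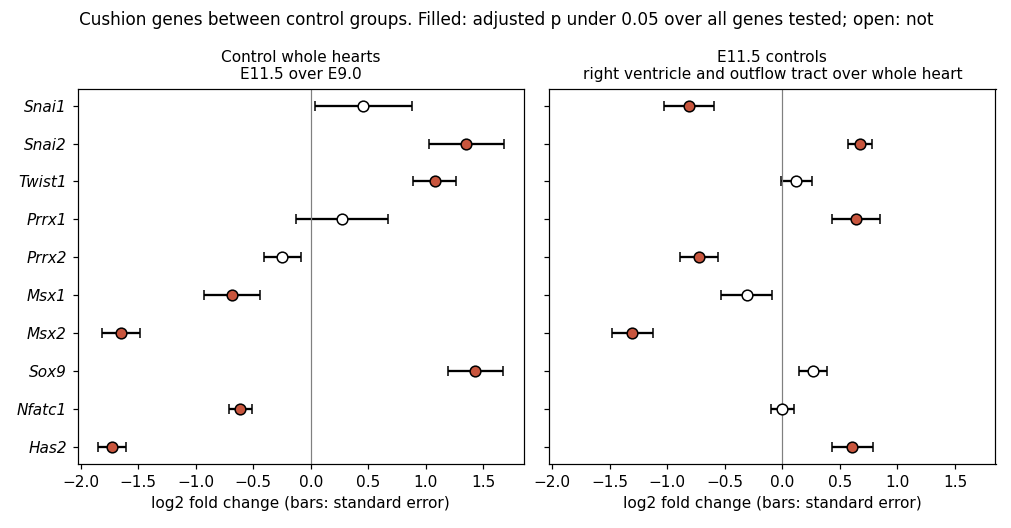
Log2 fold change with standard error (x axis) of each member between stages of control whole hearts and between control tissues at E11.5; filled points passed adjusted p under 0.05 over all genes. Has2 is at -1.73 between stages and at 0.61 between tissues, and Msx2 is below 0 in both (-1.65 and -1.30).

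Likeness between genes was described over the 20 libraries by Pearson's r of log2 CPM centred on the mean of each line, so that points share library, genotype and depth. Within the members, Snai1 was most like Sox9 (r = 0.80) and Prrx1 (r = 0.76). Among 12310 genes of sufficient level, the 3 most like each member were taken. For Prrx2 these were Ssbp3 (r = 0.84), Gamt (0.84) and Tcea3 (0.83), and r with Ssbp3 was 0.91 over the Mesp1Cre libraries alone, 0.87 over those of Mef2cAHF::Cre and 0.82 over those of Tnnt2::Cre. For Twist1 they were Pcdh18 (0.93), Gli2 (0.88) and Peg3 (0.83). For Nfatc1 they were Tek, an endothelial receptor gene (0.74), Vcan, the gene of the cushion proteoglycan versican (0.70), and Adamtsl2 (0.70). Sox9 had Heyl (0.87), Dkk1 (0.86) and Unc5b (0.85), and Snai1 had Wdr47, Dkk1 (0.845 each) and Nosip (0.825), though r of Snai1 with Wdr47 was 0.94 over the Mesp1Cre libraries and 0.23 and 0.26 over the other lines. Heyl was low in Mesp1Cre, at 1.71 ± 0.977 CPM in controls and 0.435 ± 0.559 CPM in mutants. Has2 had Pdlim3, Papss2 and Dcakd (0.78 to 0.79). Snai2 was led by 9030425E11Rik (0.87), ahead of Supt7l and Acot1, Prrx1 by Zfp362 (0.87), ahead of Ctxn1 and Zfp454, Msx1 by Gpr125 (0.86), ahead of Unc119 and Tmem222, and Msx2 by Rpl39 and Shfm1 (0.85 each), ahead of Cox6c. Over the Mef2cAHF::Cre libraries alone r was 0.11 for Sox9 with Heyl, 0.14 for Msx1 with Gpr125, 0.365 for Snai2 with 9030425E11Rik and 0.49 for Nfatc1 with Tek. These genes were picked for a high r, which over so few libraries is a description.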

How the data were processed

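RNA-seq was done on 20 embryonic mouse heart libraries. The labels name NuGEN Ovation and Ultralow kits and the study's methods name another kit, and the strand setting of counting is not given in the sources used here. Per the labels, E9.0 applies to Mesp1Cre, although the shared protocol text names E11.5. The authors aligned reads with TopHat2 2.0.8b to mm9 (submitters' processing notes) and deposited 1 table of 33495 genes with raw counts per gene and FPKM values from USeq, which equal the count scaled by gene length and by the total of the column. The authors' 20 columns of variance-corrected log2 values were not used. Mef2cAHF::Cre groups follow the titles, and the reading by column names was an alternative.

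Counts were tested in R 4.3.3 with the quasi-likelihood F test of edgeR 4.0.16 (TMM, filterByExpr), within each line, and interactions in 1 fit of 6 groups, with Benjamini-Hochberg adjustment over all genes tested and a threshold of 0.05. Alternatives were DESeq2 1.42.0, its size factors, no filter beyond 1 count, 1 fit of all groups, limma 3.58.1 on log2(FPKM + 0.1), a replicate block and leaving out each library. Copies of exons were sought with blastn 2.17.0 over at least 80 bases. The tests were tried on simulated data. No pair of libraries differed by so little as sampling noise. Named genes were all members, Kmt2d, in each comparison the 3 genes of lowest p in each direction from 5 lists of cushion genes, and the 3 genes most like each member. The members and lists were chosen with earlier results of these data known.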

Additional observations from a re-analysis of the deposited data

Results flagged for a closer look

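Prrx2 in Mesp1Cre mutants was at 12.75 CPM in mutant 3, below the other 3 mutants, which lay close together between 15.11 and 15.26 CPM. This was the 1 of 20 sets of 4 libraries examined (10 members in 2 groups) with a gap, relative to its range, over the limit that chance passes in about 1 in 20 sets. Prrx2 had the lowest coefficient of variation of the 10 members in these mutants, at 8.43% against a median of 29.7%.

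By the titles only, the effect of genotype on Prrx2 differed between lines in the test of the difference itself. The log2 fold change in Mesp1Cre minus that in Mef2cAHF::Cre was -0.7057 (adjusted p = 0.0459, edgeR), and that in Mef2cAHF::Cre minus that in Tnnt2::Cre was 1.411 (adjusted p = 0.00207, edgeR). Both follow the titles. By the column names they were 0.09 (adjusted p = 0.883) and 0.61 (adjusted p = 1).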

How the results depend on the processing

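Direction and call were kept in 426 of the alternatives to single values other than leaving out a library, and in 434 of those that left out 1. The call was lost in 16 and 32 of them, gained in 6 and 2, and the sign changed in 25 and 26. Values that passed in neither setting count as kept. The sign changes include those within Mef2cAHF::Cre by the column names, where the exchange of groups reverses every sign. With DESeq2, 1 member passed in Mesp1Cre (Has2) and 1 between Mesp1Cre and Tnnt2::Cre. With limma on FPKM 0 passed in Tnnt2::Cre and 0 between Mesp1Cre and Mef2cAHF::Cre. With all genes of at least 1 count 0 passed in the latter, and in 1 fit of 6 groups 3 passed between tissues, without Snai1, Snai2 and Prrx1. Between mutants and controls, r of same-numbered libraries ran from -0.106 to 0.232, and from -0.211 to 0.24 with the comparisons of controls. In Tnnt2::Cre, mutants 1 and 3 were most like the control of the same number. With 3 or 4 libraries per group these values cannot decide whether the numbers pair them. With the replicate block 0 members passed in Tnnt2::Cre (Prrx2 -1.01, adjusted p = 0.0508, edgeR) and 0 between Mesp1Cre and Mef2cAHF::Cre, and the log2 fold change was -0.0093 for Prrx1 in Mesp1Cre, 0.020 for Has2 in Mef2cAHF::Cre and -0.022 for Prrx1 between stages.

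By the column names 0 members passed in either interaction with Mef2cAHF::Cre (Prrx2 0.093 against Mesp1Cre), and the log2 fold changes in that line were -0.070 for Snai1, -0.073 for Snai2, 0.20 for Twist1, 0.051 for Prrx1, -0.40 for Prrx2, 0.35 for Msx1, -0.58 for Msx2, 0.14 for Sox9, -0.11 for Nfatc1, 0.000601 for Has2, -0.32 for Kmt2d, -0.92 for Col2a1 and 0.88 for Edn1. Between tissues they were -0.076 for Twist1 and 0.11 for Nfatc1. FPKM shifted the median of all genes by 0.148, -0.131, 0.111 and 0.224 in Mesp1Cre, Mef2cAHF::Cre, Tnnt2::Cre and between tissues, and reversed Msx2 (0.13) in Mesp1Cre, Snai1 (-0.078), Snai2 (-0.060) and Nfatc1 (-0.013) in Mef2cAHF::Cre, Twist1 (0.036) in Tnnt2::Cre and Nfatc1 (0.22) between tissues, where DESeq2 size factors gave 0.0047.

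With 1 library left out, 0 to 1 members passed in Mesp1Cre and in Tnnt2::Cre, 0 to 2 between Mesp1Cre and Tnnt2::Cre and 0 to 2 between Mesp1Cre and Mef2cAHF::Cre. Signs changed in Mesp1Cre for Snai1 (-0.55 to 0.41), Twist1 (-0.12 to 0.32), Prrx1 (-0.26 to 0.31), Msx2 (-0.17 to 0.14) and Nfatc1 (-0.037 to 0.14). They changed in Mef2cAHF::Cre for Snai1 (-0.040 to 0.25), Prrx1 (-0.24 to 0.077) and Has2 (-0.12 to 0.21), between stages for Prrx1 (-0.036 to 0.51) and between tissues for Nfatc1 (-0.13 to 0.062). The cause of these changes was not tested. Counts of Snai1 at E9.0 were 11 to 114 per library.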
